A study of Mus musculus with 12 samples.

Results

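Carcinogen-induced tongue tumours of the mouse differed in how much T cell RNA they held, and tumours 1, 2 and 3 are set here against tumours 4, 5, 6 and 7 across all genes measured. These 3 and 4 samples make up the 7 tumours among the 12 arrays of the series, and 5 normal tongues serve only as a level beside them. The labels do not give this split. The tumours were selected on the T cell and NK cell gene values of the same arrays, so every difference between the 2 sets is a description and carries no test.

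The tumours came from mice that received the carcinogen 4NQO (4-nitroquinoline 1-oxide, which damages DNA) at 200 µg/mL and arecoline, an areca nut alkaloid, at 500 µg/mL, both for 8 weeks. The normal tongues came from control mice that were given DMSO over the same 8 weeks. All mice were of strain B6, are labelled as 8 months old, and were left untreated for a further 20 weeks before the tissue was taken. RNA was biotin-labelled and hybridised to Illumina single-colour bead arrays, 1 array per tissue piece. The labels do not say whether the pieces came from separate animals, so a p-value against normal tongue measures only the spread between these pieces.

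T cells recognise peptides that other cells display on MHC molecules, through a receptor whose signal runs through the CD3 chains. Activated T cells and NK cells release interferon-gamma, which acts through transcription factors such as IRF1. The genes it induces include the chemokines that attract more T cells and the proteasome, transporter and MHC genes of antigen presentation. In squamous tumours such a profile is a familiar mark of an inflamed tissue, and it reads the whole tissue piece, since tumour, stromal and immune cells all answer to interferon.

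Values are log2 signals after background correction and quantile normalisation. A gene was kept where its probe lay above background on at least 3 of the 12 arrays, which held for 11251 genes. Between 14734 and 15375 probes were above background on each array. Lat, Lag3, Cxcr3 and Mcpt1 were above background in tumours 1 to 3 alone. They passed this filter only through the set where they are high, so nothing is read from their being kept. The small number of arrays limits the precision. A gene is called separated where all 3 values of tumours 1 to 3 lie beyond all 4 values of tumours 4 to 7 and the means differ by at least 2-fold, a log2 difference of 1. In these bulk samples, fewer cells of a type and less RNA per cell cannot be told apart.

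The CD3 chains were among the genes on which the tumours were selected, so their values describe the split. Cd3d, the delta chain of the T cell receptor complex, had log2 signals of 8.47, 8.26 and 8.36 in tumours 1 to 3, against 6.91, 7.37, 6.72 and 7.57 in tumours 4 to 7, with normal tongue at 6.22 to 6.40. Cd3g, the gamma chain, had 8.50, 8.89 and 8.65 in tumours 1 to 3, against 6.96, 7.42, 7.16 and 7.82 in tumours 4 to 7 and 6.22 to 6.53 in normal tongue. All 4 tumours of the lower set thus lay above all 5 normal tongues for both genes, and no normal tongue was above background for Cd3d. Cd3e, the epsilon chain, had 7.71, 7.67 and 7.66 in tumours 1 to 3 and 6.6, 6.88, 6.70 and 7.00 in tumours 4 to 7, a difference of 0.89 that is short of 2-fold. Cd247, the zeta chain, differed by 0.13 and overlapped between the sets. The co-receptor genes Cd4 and Cd8a were above background on too few arrays to be kept, and Lck, the kinase of the co-receptors, was not analysed here. Nearest to the line between the sets, over the mean of 13 T cell receptor and co-receptor genes, were tumour 2 at 7.68 on one side and tumour 7 at 7.22 on the other.

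The markers Cxcl9 and Tap1 are not T cell genes, but both respond to interferon. Cxcl9, a chemokine that attracts T cells through the receptor CXCR3, had 12.63, 11.79 and 13.58 in tumours 1 to 3, against 8.53, 8.27, 6.45 and 8.86 in tumours 4 to 7. The means of 12.67 ± 0.90 (SD, n = 3) and 8.03 ± 1.08 (SD, n = 4) differ by log2 4.64, a 24.9-fold difference and the largest of all genes kept. Normal tongue lay at 6.23 to 8.26. Tap1, a subunit of the transporter that loads peptides for MHC class I, had 8.77, 8.46 and 9.0 in tumours 1 to 3, against 7.72, 7.35, 7.17 and 8.19 in tumours 4 to 7 and 6.65 to 7.21 in normal tongue. For Tap1 the gap between the sets was only log2 0.27, since tumour 7 lay close to tumour 2.

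**Figure D1:**
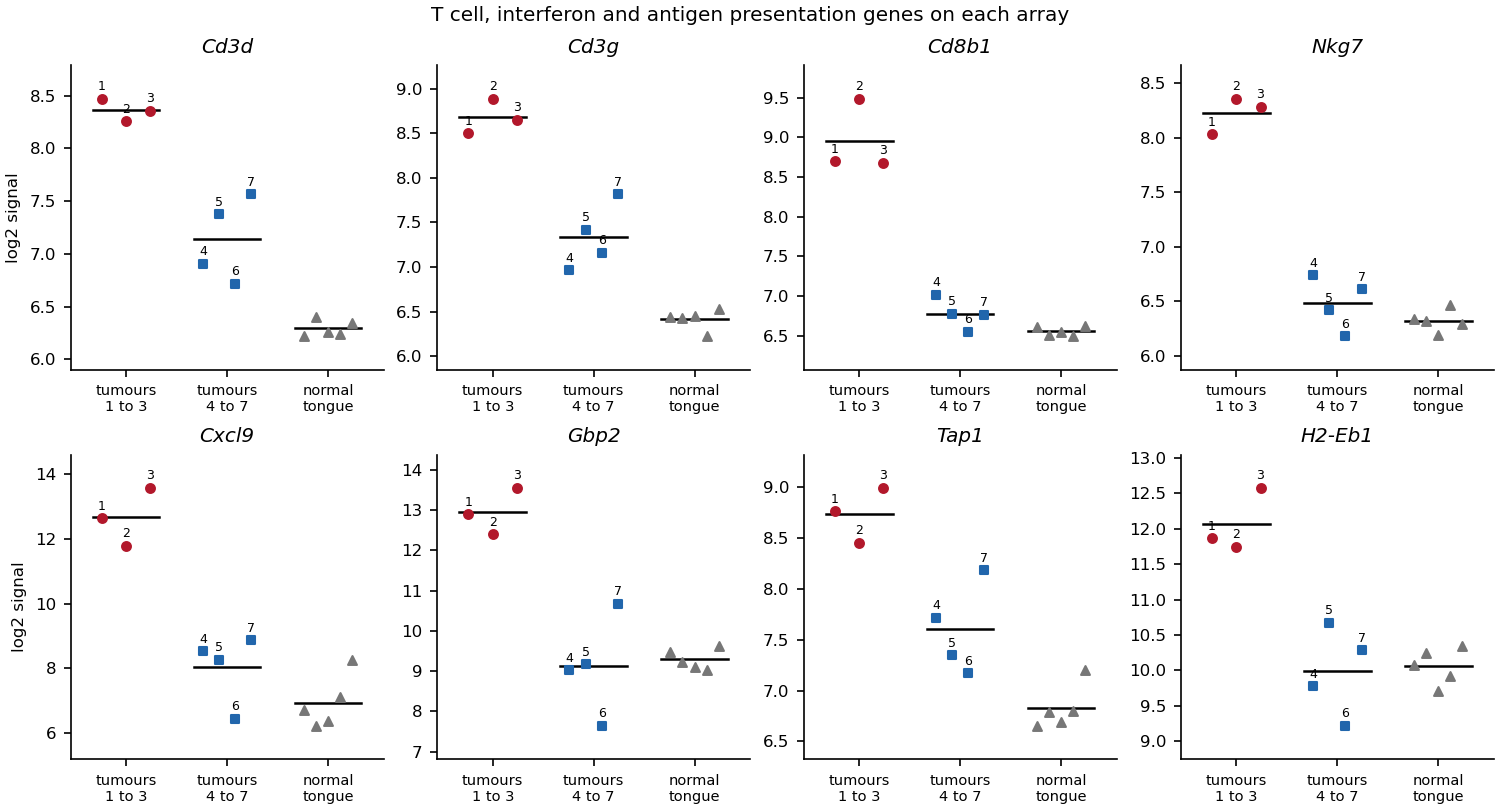
Log2 signal (vertical axis) of 8 genes on each array, with tumours 1 to 3 in red, tumours 4 to 7 in blue and the 5 normal tongues in grey. Points are arrays, numbers are the tumours, lines are means. Tumours 1 to 3 lie above the other 9 arrays in all 8 panels, and in the lower row tumour 6 is the lowest tumour.

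Across all genes the contrast ran 1 way among large differences. Separated genes numbered 155 higher in tumours 1 to 3 (1.38% of genes kept) and 9 lower (0.08%). Nothing is read from these shares, because the split was made on the same arrays. Without a minimum difference the picture was more even, with 667 genes (5.93%) higher and 894 (7.95%) lower without overlap. The median log2 difference over all genes was −0.04, and 41.5% of genes lay above 0. These shares over all genes are the level for the counts of each list below. The count of higher genes was 246 without tumour 4. The count of lower genes was 38, 26, 14, 15 and 56 without tumours 1, 3, 4, 6 and 7 in turn.

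Tumour 2 carried more muscle and gland RNA than the other tumours. Its mean signal over 23 skeletal muscle genes was 12.32, with 9.71 and 9.02 in tumours 1 and 3, 8.25 to 10.91 in tumours 4 to 7 and 13.51 to 13.87 in normal tongue. Over 9 salivary gland genes it had 10.44, against 6.43 to 7.08 in the other 6 tumours. With tumour 2 left out, 175 genes (1.56%) were separated as higher and 9 (0.08%) as lower. Of the 155 higher genes, 133 were among those 175, or 85.8% of the first list and 76.0% of the second. Of the 9 lower genes, 6 stayed separated without tumour 2, 5 without tumour 4 and 2 without both.

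The T cell receptor list held 25 genes, of which 13 were kept, 9 were below background and 3 were not analysed here. Of the 13, 4 were separated as higher, 9 lay higher without overlap and 1 lay lower without overlap. Over all genes kept these shares were 1.38%, 5.93% and 7.95%. Nothing is read from these counts, because the list holds CD3 chains on which the tumours were selected. It also holds Lat, which was kept only through tumours 1 to 3. The median log2 difference of the list was 0.64 (0.70 without tumour 2, 0.16 with no filter on low signal). Cd8b1, the beta chain of the CD8 co-receptor of cytotoxic T cells, differed most. It had 8.70, 9.49 and 8.68 in tumours 1 to 3, against 7.02, 6.78, 6.55 and 6.77 in tumours 4 to 7 and 6.49 to 6.62 in normal tongue. Tumours 4 to 7 thus lay close to normal tongue for Cd8b1, while for Cd3d and Cd3g they lay clearly above it. A further probe of Cd8b1 differed by log2 0.52 and was not separated, and the mean over its probes differed by 1.35 in place of 2.18.

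The remaining T cell genes differed less. Cd27, a co-stimulatory receptor, was separated at log2 1.00, but a further probe differed by 0.13 and the mean over probes by 0.56. Cd2, an adhesion receptor of T and NK cells, had 7.45, 6.83 and 7.21 in tumours 1 to 3 and 6.41, 6.36, 6.13 and 6.56 in tumours 4 to 7, a difference of 0.80. Lat, the adaptor that links the receptor to its signalling chain, was above background in all 3 of tumours 1 to 3 and in none of tumours 4 to 7, a difference of at least 1.37-fold. Zap70, the kinase recruited by the CD3 chains, differed by log2 0.56. Cd5 (−0.17) and Bcl11b (0.15), both known from T cells, differed by little and changed sign under some of the alternatives. Both were above background in every normal tongue, Cd5 at 7.46 to 8.07 and Bcl11b at 10.32 to 10.83. Whether they follow T cells in this tissue was not tested. Cd6, a receptor related to CD5, depended on the probe. The probe with the highest mean over all arrays differed by −0.12. The 3 other probes of Cd6 differed by 0.94, 1.33 and 1.15, the last 2 of them separated as higher. Under cyclic loess scaling the gene differed by 1.42, but there the probe was picked anew and may be another one.

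Genes of cytotoxic and NK cells split into members that were far apart and members that were level. Of 17 listed genes, 10 were kept and 3 were separated as higher, against 1.38% over all genes. The tumours were selected on T and NK cell genes, so this count describes the split. The list median was 0.23, and 0.05 with no filter on low signal. Nkg7, a protein of cytotoxic granules, had 8.03, 8.36 and 8.29 in tumours 1 to 3, against 6.74, 6.42, 6.18 and 6.61 in tumours 4 to 7 and 6.19 to 6.47 in normal tongue. Klrd1, the CD94 receptor of NK cells and some CD8 T cells, had 7.96, 7.95 and 8.26 in tumours 1 to 3 and 6.57, 6.87, 6.48 and 6.38 in tumours 4 to 7. Ctsw, a protease of cytotoxic lymphocytes, had 7.55, 7.77 and 7.38 in tumours 1 to 3 and 6.42, 6.48, 6.18 and 6.54 in tumours 4 to 7. For each of these 3 genes the values of tumours 4 to 7 overlapped those of normal tongue. For Ctsw, at 5.90 to 6.23 in normal tongue, only tumour 6 did so, and tumours 4, 5 and 7 lay above it.

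Other cytotoxic genes showed little of this. Ifng, which encodes interferon-gamma itself, had 7.00, 6.87 and 7.16 in tumours 1 to 3, against 6.58, 6.65, 6.65 and 6.63 in tumours 4 to 7 and 6.30 to 6.54 in normal tongue. The sets did not overlap, but all signals were low, and the difference was log2 0.38 (0.87 at a further probe). Prf1, the pore-forming perforin, differed by 0.05 with a sign that changed under some alternatives. Its probe was bright in normal tongue too, at 9.34 to 9.76, where Nkg7 lay at 6.19 to 6.47. Whether the Prf1 probe follows cytotoxic cells in this tissue was not tested. Gzma, a granzyme, lay between 6.41 and 6.47 in tumours 1 to 3, against 6.59 to 6.64 in tumours 4 to 7. Gzmb and the NK cell receptor Ncr1 were below background.

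No gene of the checkpoint and regulatory T cell list met the 2-fold rule without overlap. Of its 11 kept members, 10 had a difference above 0, against 41.5% over all genes. Among them, Lag3 was kept only through tumours 1 to 3, so nothing is read from its sign. The list median was 0.62, and 0.45 with no filter on low signal. Cd274, the ligand PD-L1 that restrains T cells, had 9.62, 8.83 and 9.93 in tumours 1 to 3, against 7.67, 8.01, 7.60 and 9.76 in tumours 4 to 7 and 7.16 to 7.57 in normal tongue. Tumour 7 thus ranked with the upper set for Cd274, and the other 3 of its set did not. Ctla4, an inhibitory receptor, had 8.16, 7.36 and 8.19 in tumours 1 to 3 and 6.82, 7.27, 6.82 and 7.26 in tumours 4 to 7. Tnfrsf4, the OX40 co-stimulator, had 8.87, 8.07 and 8.83 in tumours 1 to 3 and 8.07, 7.77, 7.30 and 7.74 in tumours 4 to 7. Lag3 was above background in tumours 1 to 3 alone, a difference of at least 1.29-fold. Foxp3, which defines regulatory T cells, differed by 0.52 and Pdcd1, the receptor PD-1, by −0.01, a sign that changed under some alternatives. Without tumour 2, the lowest of its set for both, Ctla4 and Tnfrsf4 were separated.

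Several genes of the interferon-gamma response differed by more than 4-fold. Of 15 kept members, 5 were separated as higher (median 0.70), against 1.38% over all genes. Gbp2, a GTPase that attacks the vacuoles of intracellular pathogens, had 12.90, 12.41 and 13.56 in tumours 1 to 3, against 9.02, 9.18, 7.64 and 10.68 in tumours 4 to 7 and 9.02 to 9.64 in normal tongue. Its difference of log2 3.83 was 2.18 at a second probe, which was separated too. Igtp, an immunity-related GTPase, had 10.61, 10.21 and 11.39 in tumours 1 to 3, against 7.40, 7.41, 6.61 and 8.26 in tumours 4 to 7 and 7.05 to 7.98 in normal tongue. For both genes tumours 4 to 7 lay around normal tongue, with tumour 6 below it and tumour 7 above it.

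Irgm2 (log2 2.76), Gbp3 (2.66) and Ifi47 (2.83), GTPases of the same 2 families, were lowest in tumour 6 and highest in tumour 3 among the tumours, as were Gbp2 and Igtp. Ifi47 lay at 6.55 to 6.96 in tumours 4 to 7 and at 6.49 to 6.95 in normal tongue. Irf1, the transcription factor that carries the interferon-gamma signal onward, had 11.93, 11.69 and 12.34 in tumours 1 to 3, against 9.55, 9.92, 9.19 and 11.27 in tumours 4 to 7 and 9.37 to 9.82 in normal tongue. The receptor and kinase genes upstream were close to level, with differences of 0.22 for Ifngr1, 0.03 for Ifngr2, 0.28 for Jak2 and −0.29 for Jak1. Close paralogs among these GTPases, the Oas genes and the class I genes may share probe sequence.

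Cxcl10, the second CXCR3 ligand on the list, followed Cxcl9. It had 9.83, 9.08 and 10.86 in tumours 1 to 3, against 6.53, 6.91, 6.21 and 7.91 in tumours 4 to 7 and 6.26 to 6.52 in normal tongue. The lymphocyte chemokine list had a median of 0.74 (0.43 with no filter on low signal). All 12 of its kept members had a difference above 0, against 41.5% over all genes, and 4 were separated, against 1.38%. Of these members, Cxcr3 was kept only through tumours 1 to 3, so nothing is read from its sign. Cxcl9 and Cxcl10 were 2 of the 4 separated genes. The others were Ccl21a (log2 1.80) and Ccl19 (1.25), the ligands of CCR7 that guide T cells and dendritic cells in lymphoid tissue. Ccl19 had 8.07, 7.44 and 7.92 in tumours 1 to 3, against 6.77, 6.58, 6.40 and 6.51 in tumours 4 to 7 and 7.99 to 8.63 in normal tongue, so here normal tongue was the high end. The probes of Ccl21a may not tell it from its near-identical copies. The receptor Cxcr3 was above background in tumours 1 to 3 alone, at 6.67, 6.54 and 7.05, a difference of at least 1.22-fold.

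Upstream sequences of some of the separated interferon genes are shown, and each of those printed here held a match. Ifi27l2a (log2 3.06), Ifi47 (2.83), Oasl2 (2.82) and Usp18 (2.58) differed by more than Isg15 (2.31) and are not shown. None of them was among the genes with a GAAANNGAA match, which can also mean that a gene had no window. Irgm2 (2.76), Gbp3 (2.66) and Psmb9 (2.45) also differed by more than Isg15 and are not shown. Irgm2 and Gbp3 held GAAANNGAA, and the window of Psmb9 held neither motif. The windows shown thus do not stand for all leading genes. Each is the 250 bases before the RefSeq start in build GRCm38.p6, written along the gene's strand. Capitals mark matches, on either strand, to TTCNNNGAA, the palindromic core of the gamma-activated site, or to GAAANNGAA, the first 9 letters of the interferon-stimulated response element bound by IRF factors.
Cxcl9 (chr5:92328080-92328329, minus strand): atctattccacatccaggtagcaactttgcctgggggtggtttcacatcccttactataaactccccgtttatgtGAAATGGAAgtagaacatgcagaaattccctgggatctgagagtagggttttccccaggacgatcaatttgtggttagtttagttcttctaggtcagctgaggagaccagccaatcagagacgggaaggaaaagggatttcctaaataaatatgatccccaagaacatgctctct
Cxcl10 (chr5:92348890-92349139, minus strand): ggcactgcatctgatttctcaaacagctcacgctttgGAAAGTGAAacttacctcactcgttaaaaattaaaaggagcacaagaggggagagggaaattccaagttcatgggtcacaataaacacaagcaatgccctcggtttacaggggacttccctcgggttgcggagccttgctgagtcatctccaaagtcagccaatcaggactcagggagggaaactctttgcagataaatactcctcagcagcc
Gbp2 (chr3:142620413-142620662, plus strand): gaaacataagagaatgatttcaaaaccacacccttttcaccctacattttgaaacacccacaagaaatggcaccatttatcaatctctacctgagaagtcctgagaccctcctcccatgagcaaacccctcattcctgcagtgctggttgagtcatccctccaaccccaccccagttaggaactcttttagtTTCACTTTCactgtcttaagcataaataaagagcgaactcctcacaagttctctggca
Igtp (chr11:58199306-58199555, plus strand): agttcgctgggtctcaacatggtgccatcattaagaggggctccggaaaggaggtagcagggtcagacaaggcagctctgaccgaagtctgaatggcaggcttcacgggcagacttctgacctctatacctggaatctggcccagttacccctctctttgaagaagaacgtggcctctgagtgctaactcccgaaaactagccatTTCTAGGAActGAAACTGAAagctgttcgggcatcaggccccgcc
Isg15 (chr4:156200819-156201068, minus strand): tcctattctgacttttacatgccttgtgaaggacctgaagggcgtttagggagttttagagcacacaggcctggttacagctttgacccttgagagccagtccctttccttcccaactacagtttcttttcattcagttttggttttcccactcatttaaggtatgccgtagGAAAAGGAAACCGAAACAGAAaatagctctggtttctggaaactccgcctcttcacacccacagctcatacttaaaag

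Igtp held a match to each motif, close together, and Isg15 held 3 overlapping matches to GAAANNGAA. Of the 155 higher genes, 108 had a window in the table, of which 24 (22.2%) held GAAANNGAA and 12 (11.1%) held TTCNNNGAA. Among all 27025 genes of the table the shares were 8.18% and 8.13%, and among the 9058 kept genes with a window 7.62% and 7.76%. Of the 6 lower genes with a window, 1 held GAAANNGAA and 2 held TTCNNNGAA. A match describes the letters only.

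Tap1 is shown as a marker with neither motif in its window, which says only that these letters are not there. It lies head to head with Psmb9, the immunoproteasome subunit that cuts peptides for MHC class I, and the windows of both genes overlap on opposite strands.
Tap1 (chr17:34187306-34187555, plus strand): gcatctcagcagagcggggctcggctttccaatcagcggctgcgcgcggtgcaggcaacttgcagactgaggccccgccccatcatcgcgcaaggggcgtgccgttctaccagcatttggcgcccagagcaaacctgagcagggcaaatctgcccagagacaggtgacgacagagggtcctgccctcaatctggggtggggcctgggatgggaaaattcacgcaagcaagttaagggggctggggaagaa

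The pathway of MHC class I presentation was the list with the most separated members, 13 of 17 kept genes, against 1.38% over all genes. Its median log2 difference was 1.35. Psmb9 had 10.67, 10.80 and 11.39 in tumours 1 to 3, against 8.87, 8.24, 7.63 and 9.26 in tumours 4 to 7 and 7.67 to 8.57 in normal tongue. The other immunoproteasome subunits Psmb8 (log2 1.57) and Psmb10 (1.38), the second transporter subunit Tap2 (1.74) and the light chain B2m (1.35) were separated too. Nlrc5, the transactivator of class I genes, had 9.85, 9.29 and 9.83 in tumours 1 to 3, against 8.53, 7.66, 7.43 and 8.58 in tumours 4 to 7 and 6.24 to 7.07 in normal tongue. H2-Q7, a non-classical class I gene, had 10.81, 11.00 and 11.11 in tumours 1 to 3, against 9.89, 8.88, 8.45 and 10.28 in tumours 4 to 7 and 8.08 to 8.38 in normal tongue. Both genes were thus graded, with all 7 tumours above normal tongue. The 4 members outside the rule were Tapbp (0.69), Psme2 (0.35), and the general chaperones Pdia3 (0.07) and Calr (−0.07), which also serve proteins other than class I.

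MHC class II genes are used by professional antigen-presenting cells to show peptides to CD4 T cells. They were separated in 7 of 11 cases (median 1.33), against 1.38% over all genes. H2-Eb1, a class II beta chain, had 11.86, 11.75 and 12.58 in tumours 1 to 3, against 9.78, 10.68, 9.22 and 10.29 in tumours 4 to 7 and 9.71 to 10.35 in normal tongue. Cd74, the invariant chain, had 12.94, 12.93 and 13.67 in tumours 1 to 3, against 10.65, 11.80, 10.42 and 11.63 in tumours 4 to 7 and 11.13 to 11.81 in normal tongue. H2-Ab1 (1.82) and H2-Aa (1.65) were alike. Ciita, the master regulator of class II genes, had 7.76, 7.13 and 8.12 in tumours 1 to 3 and 6.42, 6.65, 6.16 and 6.64 in tumours 4 to 7. The range of tumours 4 to 7 overlapped that of normal tongue for all 7 separated class II genes. It did so too for Psmb9, B2m, Tap1 and most other separated class I genes. For H2-Ab1 and Tap1 this rested on tumour 6 alone, while tumours 4, 5 and 7 lay above all normal tongues. Tumour 5 was the highest of them for H2-Eb1 and Cd74.

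The genes of the type I interferon response were separated in 11 of 17 cases (median 1.09), against 1.38% over all genes. Oasl2, an antiviral 2′-5′ oligoadenylate synthetase-like protein, had 10.04, 10.24 and 11.38 in tumours 1 to 3, against 7.83, 7.71, 7.22 and 8.17 in tumours 4 to 7 and 7.35 to 9.34 in normal tongue. Usp18, which strips the ubiquitin-like ISG15 from proteins, had 8.96, 9.59 and 10.29 in tumours 1 to 3, against 7.16, 7.20, 6.86 and 6.93 in tumours 4 to 7 and 7.24 to 8.73 in normal tongue. Isg15 itself had 9.74, 9.92 and 11.91 in tumours 1 to 3, against 8.89, 7.88, 7.63 and 8.46 in tumours 4 to 7. Tumour 3 was the highest array for all 3 genes, and the median of the list was 0.77 without it.

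Normal tongue did not sit at the bottom of this list. Ifit3, an antiviral protein, had 9.21, 9.12 and 9.98 in tumours 1 to 3, against 7.56, 7.31, 7.35 and 7.14 in tumours 4 to 7 and 8.44 to 9.25 in normal tongue. Ifi27l2a, an interferon-inducible gene outside the list and among the largest differences, had 10.97, 11.27 and 12.61 in tumours 1 to 3, against 10.06, 8.66, 7.23 and 8.24 in tumours 4 to 7 and 10.68 to 12.33 in normal tongue. For Usp18, Ifit3 and Ifi27l2a all of tumours 4 to 7 lay below all normal tongues. Ifit3 differed by 2.10 at its brightest probe and by 1.31 in the mean over its probes.

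**Figure D2:**
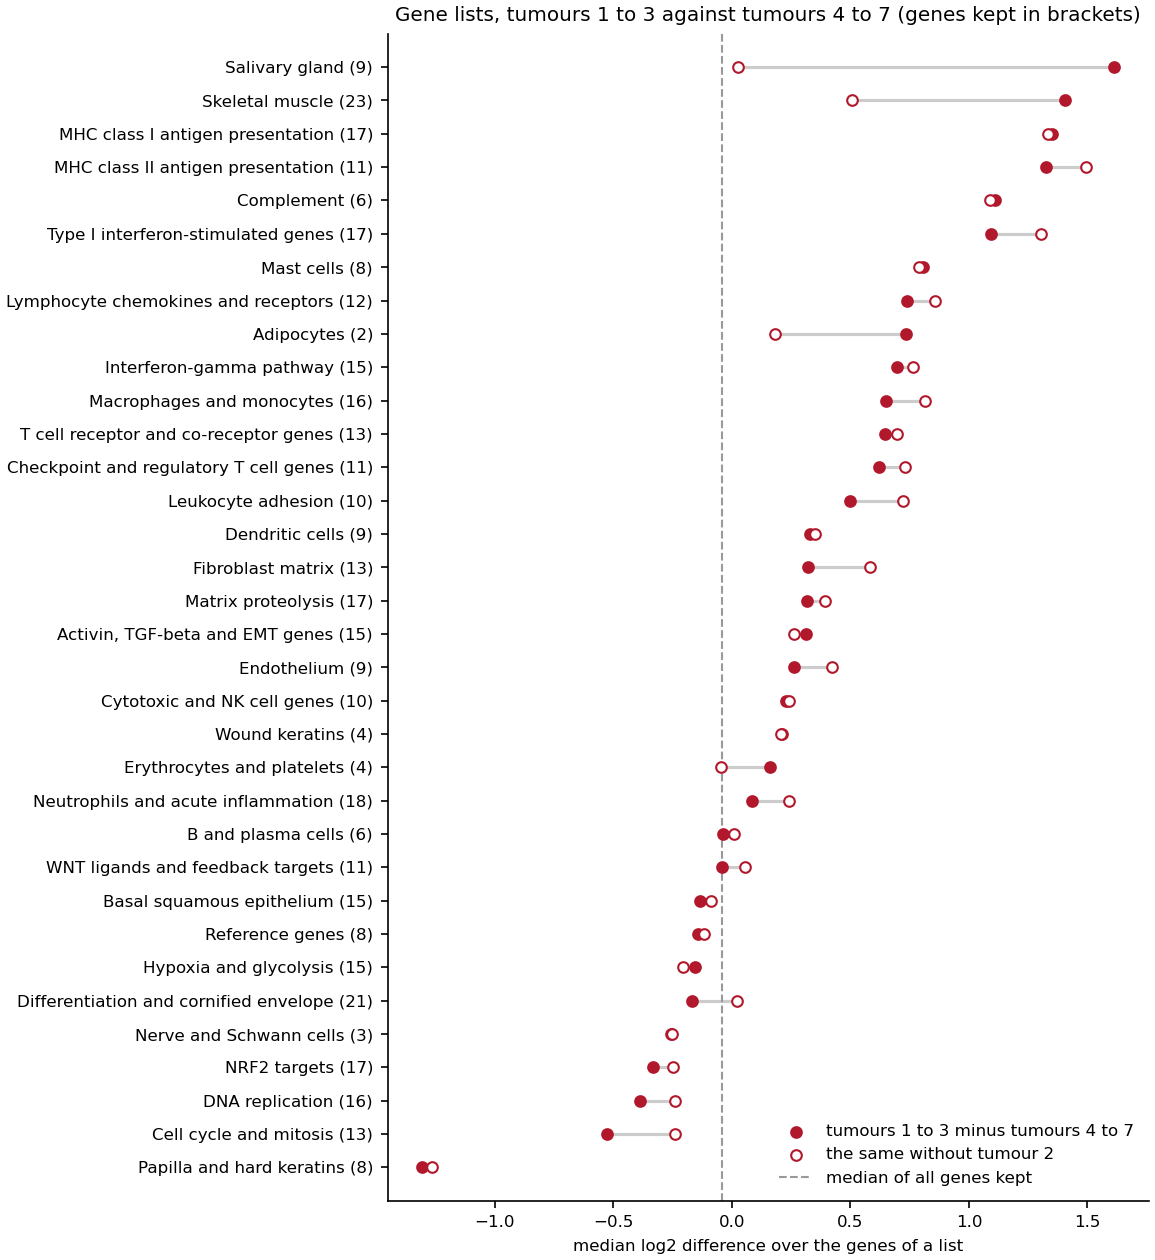
Median log2 difference, tumours 1 to 3 minus tumours 4 to 7 (horizontal axis), for each of 34 gene lists. Filled points use all 7 tumours, open points leave out tumour 2, and the dashed line is the median of all genes kept (−0.04). The salivary gland list moves between 1.61 and 0.03 and the muscle list between 1.41 and 0.51, while the MHC lists stay above 1.3 in both.

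Of 16 kept macrophage genes, 4 were separated as higher (1.38% over all genes) and 12 were not, with a median of 0.65 (0.81 without tumour 2). The separated genes were Aif1, an actin-binding protein of macrophages, and the 3 chains of complement C1q that macrophages make. C1qc had 9.88, 10.21 and 11.13 in tumours 1 to 3, against 8.46, 8.81, 9.22 and 9.0 in tumours 4 to 7 and 9.56 to 10.28 in normal tongue. Aif1 had 8.84, 8.79 and 9.89 in tumours 1 to 3, against 7.93, 7.81, 7.37 and 8.02 in tumours 4 to 7 and 7.08 to 7.49 in normal tongue. Adgre1, the F4/80 antigen, overlapped between the sets (log2 0.65), and Cd68 and Csf1r were not analysed here.

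Dendritic cell genes showed mixed values. The co-stimulators Cd86 (log2 1.07) and Cd40 (1.12) were separated among 9 kept genes, against 1.38% over all genes, with a list median of 0.33. Cd40 rested on 1 of 4 probes, the others differing by −0.08 to 0.58, and its mean over probes differed by 0.40. Flt3 and Xcr1, which mark dendritic cells proper, differed by −0.02 and −0.18, and Itgax and Clec9a were below background.

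Of 8 kept mast cell genes, 1 was separated, against 1.38% over all genes, with a list median of 0.80 (0.47 without tumour 1). The gene was Tpsb2, a tryptase, which had 7.87, 7.17 and 6.52 in tumours 1 to 3, against 6.05 to 6.16 in tumours 4 to 7, none of them above background, a difference of at least 1.64-fold. Cpa3, the mast cell carboxypeptidase, had 8.95, 8.33 and 6.90 in tumours 1 to 3, against 7.03, 6.02, 6.06 and 6.09 in tumours 4 to 7 and 8.63 to 10.26 in normal tongue. Mcpt1, a mucosal mast cell protease outside the list, met the rule for separated genes too. It had 9.50, 8.60 and 7.31 in tumours 1 to 3, while no other array was above background, a difference of at least 4.00-fold. For Cpa3, tumour 3 lay with tumour 4, and normal tongue was the high end. For Mcpt1, normal tongue lay at background like tumours 4 to 7.

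Lists of B cells and neutrophils held no separated gene. None of 6 kept B and plasma cell genes was separated (median −0.04), Ms4a1, the CD20 antigen, lay between 6.37 and 6.85 on all 12 arrays, and Cd79a was below background. None of 18 neutrophil and acute inflammation genes was separated (median 0.09, 0.24 without tumour 2 and −0.05 without tumour 3). Csf3r, the receptor for the neutrophil growth factor G-CSF, had 7.61, 6.94 and 8.08 in tumours 1 to 3, against 7.31, 7.21, 7.60 and 8.99 in tumours 4 to 7. Tumour 7 was the highest array for Csf3r. Ltf, lactoferrin, had 8.07, 11.85 and 13.48 in tumours 1 to 3 and 9.86, 9.60, 7.17 and 11.08 in tumours 4 to 7, and Saa3, an acute-phase protein, was highest in tumour 1 at 13.51. Without tumour 2, Saa3 was separated at a difference of 2.29.

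Of 6 kept complement genes, 4 were separated as higher, against 1.38% over all genes (median 1.11). These 4 differed in their position relative to normal tongue. Serping1, the C1 inhibitor, had 11.27, 11.16 and 11.29 in tumours 1 to 3, against 9.43, 8.92, 9.69 and 9.45 in tumours 4 to 7 and 11.96 to 12.26 in normal tongue. C2 had 8.78, 8.57 and 8.90 in tumours 1 to 3, against 7.09, 6.49, 6.33 and 6.41 in tumours 4 to 7 and 8.25 to 8.90 in normal tongue. Serping1 and C4b (1.22) lay below all normal tongues in both sets, and C2 did so in tumours 4 to 7 alone. Cfb, the factor B of the alternative pathway, had 7.37, 7.17 and 7.7 in tumours 1 to 3, against 6.22, 6.47, 6.44 and 6.53 in tumours 4 to 7 and 6.39 to 6.78 in normal tongue, so here tumours 1 to 3 lay above it. The mean of the 6 genes lay between 8.47 and 8.52 in tumours 1 to 3, against 7.07 to 7.41 in tumours 4 to 7 and 8.47 to 8.67 in normal tongue, and it averages members on opposite sides of normal tongue.

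**Figure D3:**
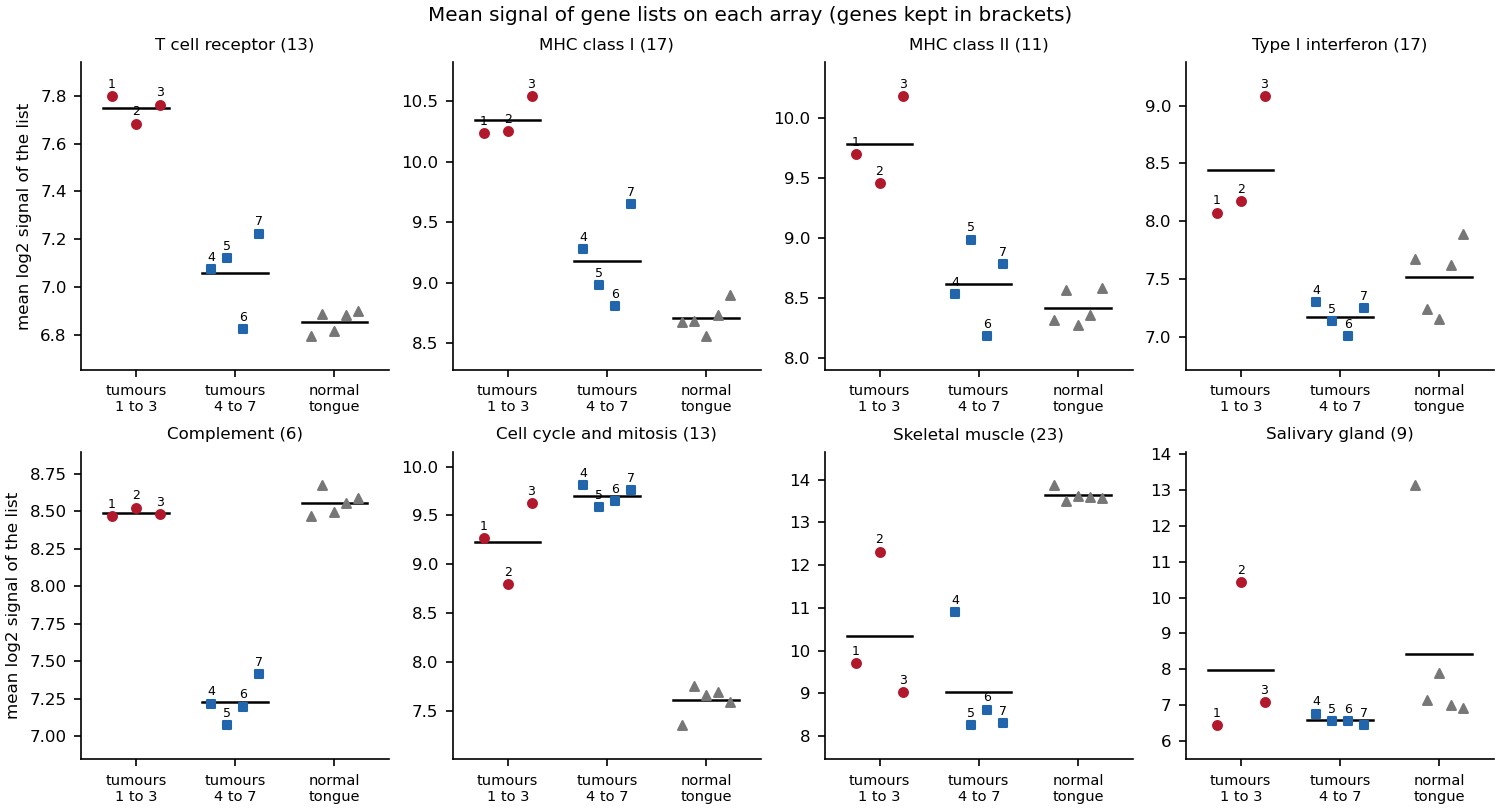
Mean log2 signal (vertical axis) of 8 gene lists on each array, tumours 1 to 3 in red, tumours 4 to 7 in blue and normal tongue in grey, lines at the means. The MHC class I score places tumour 7 at 9.65, between the other 3 tumours of its set and tumours 1 to 3. The complement score of tumours 1 to 3 meets that of normal tongue, and the muscle and gland scores are high in tumour 2.

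Most listed stromal genes were not separated, and of all genes kept 1.38% were separated as higher. Lum and Dcn, the collagen-binding proteoglycans lumican and decorin, were the separated members among 13 fibroblast matrix genes (median 0.32, 0.58 without tumour 2). Both sets lay below all normal tongues for both. Lum had 10.86, 9.87 and 10.32 in tumours 1 to 3, against 8.82, 9.02, 9.60 and 8.41 in tumours 4 to 7 and 10.89 to 11.59 in normal tongue. Dcn had 13.67, 13.49 and 13.64 in tumours 1 to 3, against 12.72, 12.11, 12.88 and 11.85 in tumours 4 to 7 and 14.31 to 14.53 in normal tongue. Col1a1, the main fibrillar collagen, was level with a difference of 0.09. Pi16, a peptidase inhibitor of fibroblasts and among the 12 largest differences of separated genes, had 9.68, 10.06 and 8.87 in tumours 1 to 3, against 6.94, 6.73, 6.72 and 7.56 in tumours 4 to 7 and 10.11 to 10.56 in normal tongue.

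Vim, the intermediate filament of mesenchymal cells, had 11.20, 10.89 and 11.09 in tumours 1 to 3, against 9.63, 9.77, 10.07 and 9.56 in tumours 4 to 7 and 10.79 to 11.42 in normal tongue. Of 9 endothelial genes, 2 were separated, against 1.38% over all genes. They were Vwf, the von Willebrand factor (log2 1.17), and Lyve1 of lymphatic vessels (1.04). Pecam1 (0.26) and Cdh5 (0.16) were not separated. Without tumour 2 Lyve1 differed by 0.88. Itgae, the CD103 integrin of tissue-resident T cells, was the separated gene among 10 of leukocyte adhesion (1.04), against 1.38% over all genes. Its 4 other probes differed by 0.15 to 0.93. The adhesion molecules Vcam1 (0.54) and Icam1 (0.32) of inflamed vessels were higher by less.

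Inhba, Mmp10 and Mmp12 lay above all normal tongues in every tumour and were separated as higher in tumours 1 to 3. Inhba, the activin A subunit, had 10.70, 11.21 and 10.17 in tumours 1 to 3, against 9.30, 8.61, 9.37 and 10.10 in tumours 4 to 7 and 6.96 to 7.27 in normal tongue. Mmp10, the stromelysin-2 of wound epithelium, had 10.48, 10.49 and 9.56 in tumours 1 to 3, against 7.88, 8.96, 8.65 and 9.37 in tumours 4 to 7 and none above background in normal tongue. Mmp12, the macrophage elastase, had 8.28, 8.37 and 8.38 in tumours 1 to 3, against 6.40, 6.97, 7.64 and 7.76 in tumours 4 to 7, where 3 of the 4 were above background. These were the separated members among 15 genes of activin, TGF-beta and mesenchymal transition together with Vim, and among 17 of matrix proteolysis. Over all genes kept the share separated as higher was 1.38%. For Inhba and Mmp10 the gap between the sets, tumour 3 to tumour 7, was log2 0.07 and 0.19.

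Set against normal tongue, the 155 higher genes fell into distinct positions. In 65 of them tumours 1 to 3 lay above all normal tongues while tumours 4 to 7 overlapped them, among them Cxcl9, Gbp2, Psmb9, Tap1, Nkg7 and the class II genes. Such an overlap can rest on 1 tumour. For Cxcl9 and Tap1 tumours 4, 5 and 7 lay above all normal tongues and only tumour 6 did not. In 19 both sets lay above all normal tongues, among them Cd3d, Cd3g, Nlrc5, H2-Q7, Inhba and Mmp10. In 32 tumours 1 to 3 overlapped the normal tongues while tumours 4 to 7 lay below all of them, among them C2, Vim, Ifit3 and Ccl19. In 23 both sets lay below all normal tongues, among them Serping1, Lum, Dcn, Vwf and Pi16. In 4, Usp18 among them, tumours 1 to 3 lay above and tumours 4 to 7 below all normal tongues, and in the last 12 both sets overlapped them.

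**Figure D4:**
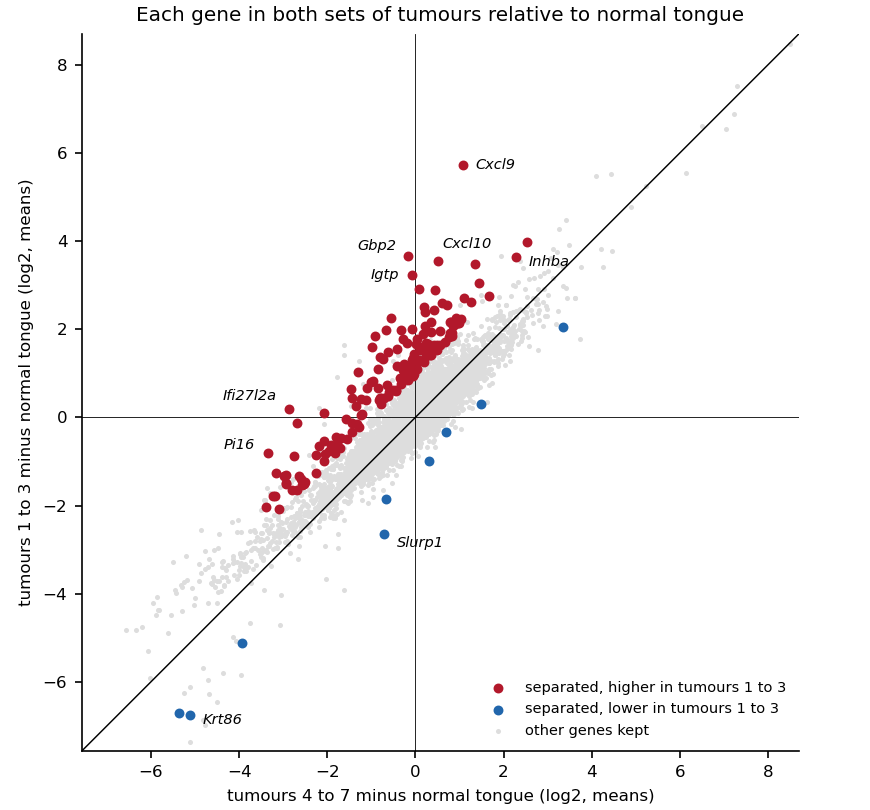
Each of 11251 genes by its mean in tumours 4 to 7 minus normal tongue (horizontal axis, log2) and its mean in tumours 1 to 3 minus normal tongue (vertical axis, log2), with the line of equal change. Red points are the 155 separated genes that are higher in tumours 1 to 3, blue points the 9 that are lower. The red points run along a band above the line, with Cxcl9, Cxcl10, Gbp2 and Igtp above 0 on the vertical axis and Pi16 below it.

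The contrast that the labels do give, all 7 tumours against the 5 normal tongues, was tested with limma and Benjamini-Hochberg adjustment at 0.05. It called 3561 genes higher (31.7%) and 2611 lower (23.2%), or 2692 and 3143 under cyclic loess scaling. Of the 155 higher genes, 40 were called higher in tumours, 38 lower, and 77 were not called. Cd3d was called higher by log2 1.37 (SE 0.29, limma adjusted p = 0.00146) and Cd3g by 1.5 (SE 0.32, limma adjusted p = 0.00136), each above all normal tongues in 7 of 7 tumours. Gbp2 and H2-Eb1 were among the genes not called. Serping1 and Pi16 were called lower.

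Muscle and gland genes moved with tumour 2. All 23 kept muscle genes had a difference above 0 (median 1.41, 0.51 without tumour 2), against 41.5% over all genes. Of the 23, 1 was separated, against 1.38% over all genes. It was Actn3, the fast-fibre actinin (1.03, 0.68 without tumour 2). Ckm, the muscle creatine kinase, had 9.21, 13.11 and 7.98 in tumours 1 to 3, against 11.32, 7.22, 7.83 and 7.10 in tumours 4 to 7 and 14.74 to 15.09 in normal tongue. The gland list had a median of 1.61, and 0.03 without tumour 2. Dcpp2, a secreted protein of salivary glands, was at 14.08 in tumour 2 and near background in the other tumours. Atp2a3, a calcium pump also among those 12, had 7.89, 13.16 and 7.95 in tumours 1 to 3, against 6.71 to 7.27 in tumours 4 to 7, so its difference was 2.57 with and 0.82 without tumour 2. Hba-a1, a haemoglobin chain, was separated at 1.40 and differed by 0.92 without tumour 2. The part of these tissues in the other differences was not tested beyond leaving out tumour 2.

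None of 15 kept basal squamous genes was separated (median −0.13, 0.09 without tumour 1). Krt5, Krt14 and Trp63, which mark basal squamous cells, differed by −0.08, 0.17 and 0.14. Dsg3, a desmosomal cadherin, was lower without overlap at −0.68 (−0.44 without tumour 2), and Itga6, an integrin of the basal layer, differed by −0.42. Krt14 ranged between 14.89 and 15.05 in tumours 1 to 3, and between 14.65 and 14.97 in tumours 4 to 7. The wound keratins Krt16 and Krt6a differed by 0.27 and −0.43, with Krt16 at 14.63 to 15.21 in all tumours.

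Of the 9 lower genes, Slurp1, Sprr2b, Dlx3 and Tgm5 are known from differentiating epithelium. Slurp1, a secreted protein of the upper epidermis, had 7.77, 7.34 and 8.21 in tumours 1 to 3, against 9.33, 9.56, 11.63 and 8.31 in tumours 4 to 7 and 9.59 to 10.89 in normal tongue. Sprr2b, a cornified envelope protein with close paralogs, had 8.29, 9.04 and 9.31 in tumours 1 to 3, against 9.46, 10.73, 10.69 and 9.88 in tumours 4 to 7 and 6.46 to 7.16 in normal tongue. Dlx3, a transcription factor of suprabasal epidermis, had 8.91, 8.25 and 8.69 in tumours 1 to 3 and 9.83, 10.15, 10.25 and 8.97 in tumours 4 to 7. Tgm5, a transglutaminase of the upper epidermis, differed by −1.02. Without tumour 2 Dlx3 differed by −0.99 and Tgm5 by −0.63, and neither was separated. Aldoc, the aldolase C, had 8.25, 8.36 and 8.63 in tumours 1 to 3 and 10.21, 9.45, 9.47 and 9.25 in tumours 4 to 7. Tmem229b differed by −1.30, with tumour 2 lowest at 7.93, and by −0.81 without tumour 2. For Slurp1 and Dlx3 tumour 7 was the nearest of its set, just above the highest of tumours 1 to 3.

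The other lower genes, the hair-type keratin Krt86 and the keratin-associated proteins Krtap4-7 and Krtap9-3, were far higher in tumour 4 than in any other tumour. Krt86, a keratin of the filiform papillae, had 6.56, 6.37 and 6.64 in tumours 1 to 3, against 11.90, 7.01, 7.07 and 6.71 in tumours 4 to 7 and 11.76 to 13.79 in normal tongue. Krtap4-7 was above background in tumour 4 alone among the tumours, at 11.06. Of the other differentiation genes, Krt76 of the oral palate and tongue had 7.41, 7.39 and 9.58 in tumours 1 to 3, against 12.91, 10.11, 9.91 and 7.12 in tumours 4 to 7. Krt24 differed by −1.65. Tumour 7 was low for Krt76 and Krt24, so neither was separated, and none of 21 genes of that list was.

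No cell cycle or DNA replication gene was separated. All 13 kept cell cycle genes had a difference below 0 (median −0.53, −0.24 without tumour 2), while 41.5% of all genes lay above 0. Of the 13, 4 lay lower without overlap, against 7.95% of all genes. Cdk1, the mitotic kinase, had 9.34, 8.90 and 9.72 in tumours 1 to 3, against 10.11, 9.81, 10.36 and 9.88 in tumours 4 to 7 and 6.88 to 7.89 in normal tongue. Top2a, the topoisomerase of dividing cells, had 9.70, 9.06 and 9.97 in tumours 1 to 3, against 10.32, 9.99, 10.23 and 10.41 in tumours 4 to 7. All 16 DNA replication genes had a difference below 0 as well (median −0.39, −0.24 without tumour 2), 4 of them without overlap. Mcm6, a subunit of the replicative helicase, differed by −0.75 and Pcna, the polymerase clamp, by −0.64. Every tumour lay above all normal tongues for Cdk1 and Top2a.

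Lists of hypoxia, NRF2 targets and WNT genes held no separated member. Egln3, an oxygen-sensing hydroxylase, had 11.65, 11.90 and 12.10 in tumours 1 to 3, against 13.53, 12.31, 11.16 and 13.09 in tumours 4 to 7, and Ddit4, a hypoxia-induced inhibitor of mTOR, differed by 0.49. The NRF2 list had a median of −0.33 (−0.77 without tumour 7), with tumour 6 at 12.55 in the mean of its 17 genes, against 10.69 to 11.51 in the other 6 tumours. Without tumour 6 the median was 0.0043. Gclc, the rate-limiting enzyme of glutathione synthesis, was at 9.84 in tumour 6 and at 6.95 to 7.89 in the other 6 tumours.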

How the data were processed

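Single-colour bead arrays of 7 tongue tumours and 5 normal tongues were used. The authors deposited log2 values of 25697 probes, which share 1 median on every array. The submitters' processing notes list BeadStudio and Partek 6.6. Any further normalisation steps are not given in the sources used here. A separate non-normalised table was not used, since the names of its 24 per-sample columns match no label, and the deposited log2 values took its place.

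Log values were first turned into linear signals, then corrected with normexp (offset 50), quantile normalised and taken to log2 in R 4.3.3 with limma 3.58.1. Background on each array was set from the lower side of the signal distribution at an upper tail of 5%. A probe was kept where it lay above background on at least 3 arrays (16491 probes, 64.2%). Of all probes, 23978 had 1 gene symbol and 1719 had none, and 23962 matched RefSeq genes of GRCm38.p6, the build of the promoter sequences. A gene is its kept probe with the highest mean. "At least" folds apply to genes above background in no array of 1 set.

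Tumours 1 to 3 and 4 to 7 were split on the T cell and NK cell genes of these arrays, so their differences have no test. Tumours and normal tongues were compared with limma, with p-values adjusted over all probes kept. The procedure was tested on simulated data. The tumours, the 34 gene lists and the rules were chosen with earlier results of these data known.

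Named genes are the 4 markers, the 12 largest rises and falls among separated genes, and up to 4 separated members of each list, or 2 where none was separated. The members of the T cell, cytotoxic and checkpoint lists were open to naming as well. Other genes, such as Irf1, Mcpt1, Ciita, Col1a1, Cxcr3 and the interferon receptors, were chosen after their values were seen. Sample numbers were not used to pair tumours with normal tongues in the main comparison. The correlations of same-numbered deviations lay between −0.383 and 0.0949, which shows no pairing but cannot exclude one with so few numbers. Alternatives covered scaling, offset, filter, probe rule, minimum difference and leaving out arrays. Figures were drawn with matplotlib 3.10.9.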

Additional observations from a re-analysis of the deposited data

Results flagged for a closer look

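For each sample at an end of its group, the gap to the nearest other sample was divided by the range of the group. A sample was picked out where this ratio exceeded Dixon's 95% critical value, which chance exceeds in about 1 of 20 groups. This held for 16 of the 116 groups of values examined, over 58 list scores and genes, with all 7 tumours taken as 1 group.

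Tumour 2 stood apart in the salivary gland score, at 10.44 with the other tumours at 6.434 to 7.085, and in Atp2a3, at 13.16 with the others at 6.712 to 7.946. Tumour 4 stood apart in the papilla and hard keratin score, at 10.96 with the others at 6.761 to 7.778. It did so too in Krt86, at 11.9 with the others at 6.366 to 7.069, in Krtap4-7, at 11.06 with the others at 6.002 to 6.298, and in Krtap9-3, at 10.19 with the others at 6.352 to 6.961.

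Among the normal tongues, normal tongue 1 accounted for most of the rest. It was high in the salivary gland score, at 13.14 with the others at 6.928 to 7.909, in the skeletal muscle score, at 13.87 with the others at 13.51 to 13.61, and in Atp2a3, at 11.73 with the others at 9.124 to 9.408. It was low in the differentiation score, at 11.4 with the others at 11.68 to 11.76, and in the papilla score, at 11.16 with the others at 12.83 to 13.02. It was also low in Krt86, at 11.76 with the others at 13.58 to 13.79, in Krtap4-7, at 10.91 with the others at 13.16 to 13.24, and in Krtap9-3, at 9.974 with the others at 11.86 to 12.1. Normal tongue 3 was high in the erythrocyte score, at 9.293 with the others at 8.879 to 8.964, and normal tongue 5 in Tap1, at 7.207 with the others at 6.654 to 6.798.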

How the results depend on the processing

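The count of separated genes was 155 higher and 9 lower in tumours 1 to 3. It moved by over 1.5 times with the minimum difference, to 323 higher and 79 lower at 1.5-fold and to 667 higher and 894 lower with none. With a normexp offset of 16 the lower count was 18. Leaving out each tumour in turn gave 155 to 246 higher and 9 to 56 lower genes. Without tumours 2 and 7, chosen after seeing the data, there were 221 higher and 47 lower genes, and without tumours 2 and 4, chosen likewise, 203 and 9. Other settings gave 140 to 176 higher genes outside the offset, and 7 to 13 lower. The causes of these shifts were not tested. Of the list medians, 38 of the 306 values from leaving out tumours and 22 of the 272 from other settings moved by more than the spread. Among tumours against normal tongue, a block on the sample numbers gave 3184 higher and 2403 lower genes, against 3561 and 2611 without the block. Whether these numbers pair the samples is not known. Array weights gave 4040 and 2826, and leaving out each normal tongue gave 3249 to 3321 higher and 2445 to 2497 lower. Low signals limit the T cell, cytotoxic, checkpoint and lymphocyte chemokine lists. With no filter their medians were 0.16, 0.05, 0.45 and 0.43, against 0.64, 0.23, 0.62 and 0.74 with it.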
